A study of Danio rerio with 12 samples.

Results

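The genes described here encode the hypoxia-inducible factors (HIFs) of the zebrafish and the proteins that pair with them or regulate them. They were both genes named EPAS1, given by their Ensembl IDs, and the genes found under the symbols hif1aa, hif1ab, arnt, arnt2, egln3 and vhl. The symbol hif1ab was found as HIF1A. Of these 8 entries, 7 gave 1 gene each among the 33737 genes with counts, and arnt2 was not analysed here. The EPAS1 copies were chosen by their measured Fsh response, in which 1 copy stood apart from the other, and the rest were added by family with those results known. The levels and Fsh differences of these 7 genes are therefore given as a description and carry no test.

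The Fsh group is 6 libraries of testis tissue from adult wild-type zebrafish that was incubated for 48 h with the gonadotropin Fsh and trilostane. The control group is 6 libraries of the same tissue, incubated for 48 h with trilostane and no Fsh. Trilostane blocks a dehydrogenase step in the making of steroid hormones, and both groups received it. Neither the dose and source of Fsh nor whether libraries came from separate fish is stated by the labels. The submitters call the libraries biological replicates.

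A HIF is a pair of proteins of the bHLH-PAS class, an alpha subunit and a beta subunit. The alpha subunits, HIF-1 alpha from the hif1a genes and HIF-2 alpha from the epas1 genes, are made all the time and destroyed while oxygen is plentiful. Prolyl hydroxylases of the EGLN family mark them, and the VHL protein brings them to a ubiquitin ligase, so that the amount of alpha protein is set largely after the RNA is made. In mammals HIF-2 alpha is known from endothelial cells, from the cells that make erythropoietin and from several other cell types. Both hif1a and epas1 have an extra copy in zebrafish, kept from the genome duplication of the teleost fishes.

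Library totals ran from 4695095 to 11497588 counts, which puts the limit that a count of 0 allows, set at 3 counts, between 0.259 and 0.641 CPM (counts scaled to the library total). Levels are CPM further scaled by TMM, a method that evens out library composition, and are not divided by gene length, so levels of different genes are not compared. Defining markers of testis cells were present, with no marker at 0 reads over all libraries in the germ cell, Sertoli cell and Leydig cell lists. Fsh library 5 stood apart in other cell types. Its summed endothelial markers were at 1237 CPM, against 471 to 631 CPM in the other Fsh libraries and 507 to 876 CPM in controls. Its summed leukocyte markers were at 468 CPM, against 124 to 181 CPM in the other Fsh libraries and 166 to 397 CPM in controls. The log2 fold change of each HIF gene is given with and without it.

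Of the alpha subunit genes, 1 EPAS1 copy differed widely between the groups. EPAS1 (ENSDARG00000008697) ranged from 30.9 to 57.1 CPM with a median of 45.9 CPM in Fsh libraries, and from 7.08 to 21.2 CPM with a median of 13.1 CPM in control libraries. The groups did not overlap, and the lowest Fsh library lay well above the highest control library. EPAS1 (ENSDARG00000008697) averaged 44.7 ± 9.37 CPM with Fsh and 13.9 ± 5.64 CPM in controls (SD, n = 6 each), on 2466 and 662 reads in all. It was 3.22-fold higher with Fsh, a log2 fold change of 1.69 ± 0.25 (SE) with a 95% interval from 1.15 to 2.22. Without Fsh library 5 this log2 fold change was 1.66, and with any 1 of the 12 libraries left out it stayed between 1.54 and 1.83. It was the only one of the 7 HIF genes called by edgeR at an adjusted p under 0.05, where 1.63% of all 19317 tested genes were called, 0.865% higher and 0.766% lower. It was also the only one whose groups did not overlap, as 1.93% of all tested genes did not. As this comparison led to the choice of the genes, nothing is read from either count.

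The other copy, EPAS1 (ENSDARG00000057671), encodes a second HIF-2 alpha subunit. It ranged from 13.5 to 23.5 CPM with a median of 17.1 CPM in Fsh libraries, and from 13.4 to 22.9 CPM with a median of 15.3 CPM in controls. The ranges lay almost on top of each other, and Fsh library 5 and control library 3 were the highest of their groups. EPAS1 (ENSDARG00000057671) averaged 18.4 ± 3.81 CPM with Fsh and 16.3 ± 3.45 CPM in controls (SD, n = 6 each). Its log2 fold change was 0.18 ± 0.17 (SE), with a 95% interval from −0.17 to 0.54. Without Fsh library 5 it was 0.10 and without control library 3 it was 0.31, the lowest and highest values with any 1 library left out.

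**Figure D1:**
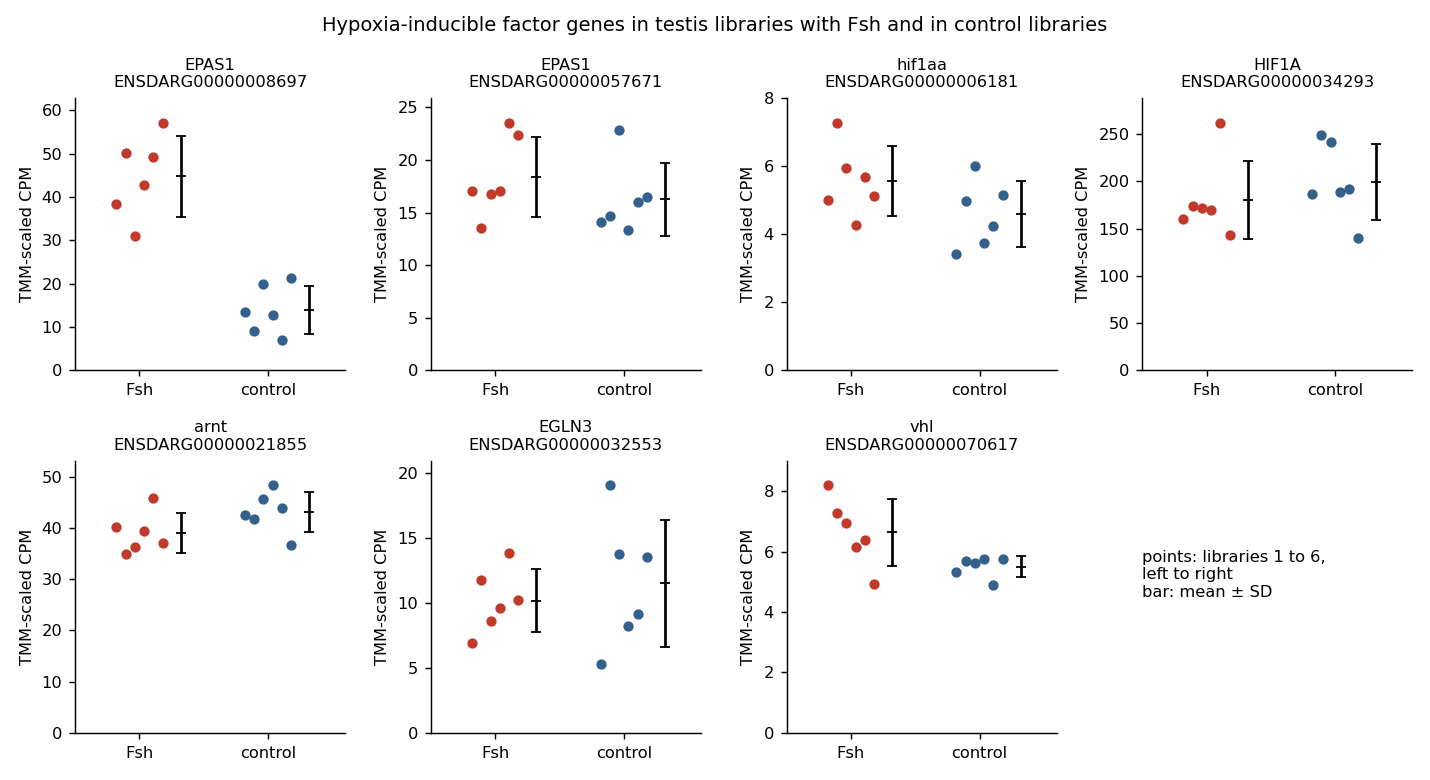
TMM-scaled CPM (vertical axes, each from 0) of the 7 HIF genes in 6 Fsh libraries (red) and 6 control libraries (blue), with mean and SD beside the points. Only EPAS1 (ENSDARG00000008697) has groups that do not overlap, at 30.9 to 57.1 CPM with Fsh and 7.08 to 21.2 CPM in controls.

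Within a library the ratio of the EPAS1 copies does not depend on how libraries are scaled. Reads of ENSDARG00000008697 were 1.84 to 3.70 times those of ENSDARG00000057671 in Fsh libraries, with a median of 2.37, and 0.446 to 1.28 times in control libraries, with a median of 0.907. The copy ENSDARG00000008697 had more reads in 6 of 6 Fsh libraries and in 1 of 6 control libraries, control library 6. On the log2 scale the ratio averaged 1.28 ± 0.35 with Fsh and −0.31 ± 0.54 in controls (SD, n = 6 each), a difference of 1.58 ± 0.26 (SE). The difference between the copies' fitted log2 fold changes was 1.51, and stayed between 1.38 and 1.67 with any 1 library left out. Because lengths of the copies were not used, these ratios show how the balance of reads differed between the groups and not which copy has more transcripts. The labels do not state how reads that match both copies were counted.

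Summed over both copies, EPAS1 reads came to 47.7 to 79.5 CPM in Fsh libraries and 23.1 to 42.7 CPM in controls. The gap between the groups remained in the sum although 1 copy overlapped almost fully. Control library 3 had the highest sum of its group and also the highest control level of ENSDARG00000057671. Fsh library 6 had the highest sum of its group and also the highest level of ENSDARG00000008697.

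**Figure D2:**
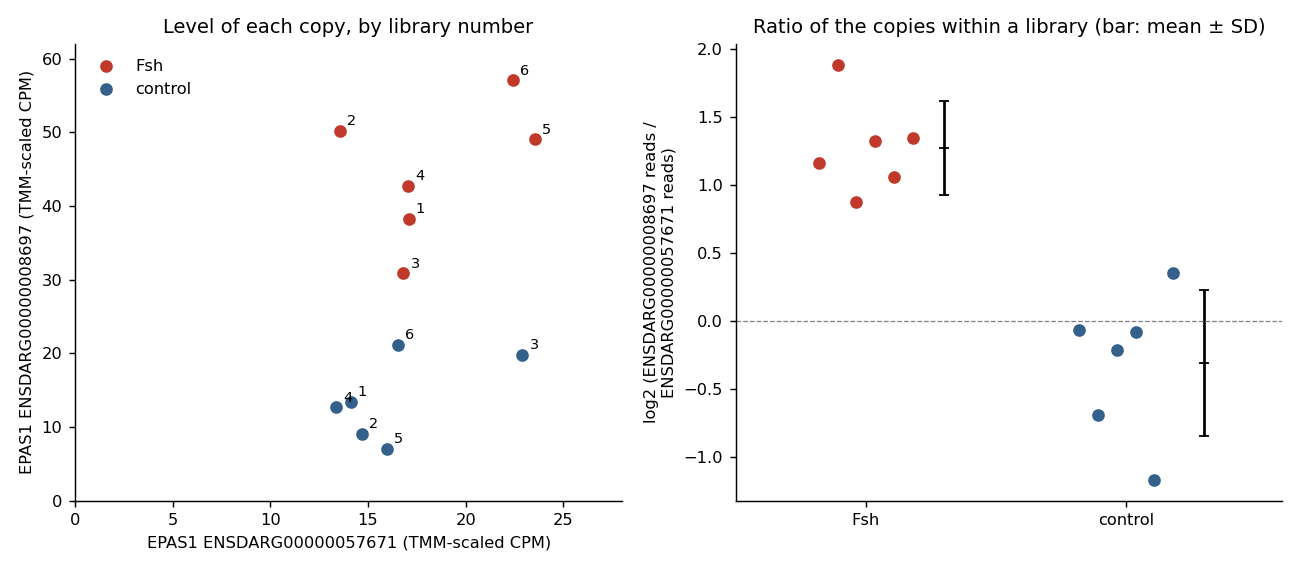
Left, TMM-scaled CPM of both EPAS1 copies in each library, numbered by replicate, and right, the log2 ratio of their reads within each library, for Fsh (red) and control (blue) libraries with mean and SD. The Fsh libraries lie above the controls along the vertical axis and span almost the same range along the horizontal one. The ratio averages 1.28 with Fsh and −0.31 in controls.

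The HIF-1 alpha genes, whose products are the general oxygen-regulated alpha subunits, did not show such a gap. HIF1A (ENSDARG00000034293) ranged from 143 to 262 CPM with a median of 171 CPM in Fsh libraries, and from 140 to 250 CPM with a median of 190 CPM in controls. Of the 6 Fsh libraries 1 lay above the control mean, and this was Fsh library 5, the library with the highest endothelial and leukocyte markers. In the controls, library 2 was the highest both in HIF1A and in these marker sums, and library 6 the lowest in HIF1A and in endothelial markers. Over all 12 libraries, with group means taken off, HIF1A correlated at 0.88 with the log2 endothelial sum and at 0.81 with the leukocyte sum. With the marker sum of pericytes and smooth muscle it correlated at 0.76. With the germ cell and Leydig cell sums it correlated at −0.67 and −0.63. What part these cell types have in the level was not tested. The log2 fold change of HIF1A was −0.15 ± 0.16 (SE; 95% interval −0.50 to 0.20), and −0.28 without Fsh library 5. With any other library left out it lay between −0.25 (control library 6) and −0.08 (Fsh library 6).

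The gene hif1aa rested on few reads, 303 over the Fsh libraries and 228 over the controls. It ranged from 4.26 to 7.28 CPM with a median of 5.41 CPM with Fsh, and from 3.42 to 6.01 CPM with a median of 4.62 CPM in controls. The ranges overlapped over most of their length (log2 fold change 0.26 ± 0.18 SE, 95% interval −0.13 to 0.65). Without Fsh library 5 this log2 fold change was 0.25, and it was lowest without Fsh library 2, at 0.16, and highest without control library 3, at 0.35. HIF1A had 23.7 to 45.7 times the reads of hif1aa in Fsh libraries, with a median of 30.3, and 26.9 to 53.1 times in controls, with a median of 47.0. The mean difference of this log2 ratio was −0.42 ± 0.20 (SE), and its groups overlapped.

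The beta subunit gene arnt, whose product pairs with the alpha subunits and with other bHLH-PAS proteins, was the steadiest HIF gene across Fsh libraries. Its coefficient of variation was 9.95% over the Fsh libraries and 9.09% over the controls, against 16.7% to 23.9% and 6.10% to 42.7% for the other 6 genes. The gene arnt averaged 39.0 ± 3.88 CPM with Fsh and 43.2 ± 3.92 CPM in controls (SD, n = 6 each). Of the 6 Fsh libraries 2 lay below all controls and none above, and the log2 fold change was −0.15 ± 0.10 (SE; 95% interval −0.35 to 0.06). It was −0.20 without Fsh library 5, in which arnt was highest with Fsh, and lay between −0.21 and −0.10 with any 1 library left out.

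EGLN3, an oxygen-dependent prolyl hydroxylase whose own gene is a known HIF target in mammals, was among the most variable. It ranged from 6.90 to 13.9 CPM with a median of 9.96 CPM in Fsh libraries, and from 5.34 to 19.1 CPM with a median of 11.3 CPM in controls. All Fsh libraries lay inside the control range. Its log2 fold change was −0.19 ± 0.27 (SE; 95% interval −0.76 to 0.38), and it moved with single libraries. It was 0.00 without control library 2, which held the highest level, −0.34 without control library 1, which held the lowest, and −0.31 without Fsh library 5, the highest with Fsh.

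The gene vhl encodes the substrate receptor of the ubiquitin ligase that removes hydroxylated alpha subunits. It ranged from 4.93 to 8.19 CPM with a median of 6.67 CPM in Fsh libraries, and from 4.89 to 5.75 CPM with a median of 5.66 CPM in controls. In 5 of 6 Fsh libraries it lay above every control, and Fsh library 6 lay at the bottom of the control range. With 369 reads over the Fsh libraries and 269 over the controls, its log2 fold change was 0.27 ± 0.15 (SE; 95% interval −0.04 to 0.58). It was 0.28 without Fsh library 5 and lay between 0.20 and 0.35 with any 1 library left out. Apart from the first EPAS1 copy, the intervals of these genes all stayed short of a 2-fold difference in either direction. As the genes were chosen in view of this comparison, the intervals are a description and no test is read from them.

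Testis tissue holds several cell types, and in such bulk samples fewer cells of a type and less RNA per cell cannot be told apart. The 9 Leydig cell marker genes with counts summed to 337 to 737 CPM in Fsh libraries and 117 to 354 CPM in controls. Of the 9, 2 were called higher and none lower, where 1.63% of all tested genes were called. The median log2 fold change was 0.80, with 6 genes above 0 and 3 below. The 3 below were NR5A1 (mean 34.2 CPM with Fsh, 40.5 CPM in controls), lhcgr (5.66 and 7.28 CPM) and hsd3b2 (1.14 and 1.16 CPM). The called genes, insl3 (mean 195 CPM with Fsh, 42.7 CPM in controls) and HSD11B2 (124 and 16.5 CPM), made up much of the sum with Fsh. Fsh library 6 and control library 6 had the highest values of their groups both in this sum and in EPAS1 (ENSDARG00000008697), and control library 5 the lowest in both. Fsh library 5 had the lowest Leydig sum with Fsh, 337 CPM, and an EPAS1 (ENSDARG00000008697) level of 49.1 CPM. Fsh library 3 had the lowest level of this copy with Fsh, 30.9 CPM, and a Leydig sum of 653 CPM, below only Fsh library 6. Control library 6 had a sum of 354 CPM and a level of 21.2 CPM. Over all 12 libraries, with group means taken off, this copy correlated at 0.631 with the log2 Leydig sum. That value pools both groups, which differed in this. In order of rising Leydig sum, control libraries held this copy at 7.08, 9.1, 13.5, 19.8, 12.7 and 21.2 CPM. In the same order Fsh libraries held it at 49.1, 38.3, 50.2, 42.8, 30.9 and 57.1 CPM, with no clear rise. With the sums of the other marker lists this copy correlated between −0.27 and 0.24. Other HIF genes had larger values with other lists. Among them were 0.88 for HIF1A with endothelial markers, −0.77 for EGLN3 with germ cell markers and −0.72 for arnt with Sertoli markers. Another was 0.66 for hif1aa with red blood cell markers. The part of Leydig cells in the level of this copy was not tested.

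The 13 Sertoli cell genes summed to 624 to 958 CPM with Fsh and 407 to 642 CPM in controls. Of these, 3 were called higher and none lower, where 1.63% of all tested genes were called. The median log2 fold change was 0.36, with 9 genes above 0 and 4 below. The 24 endothelial genes, for a cell type known for HIF-2 alpha, overlapped between the groups at 471 to 1237 CPM with Fsh and 507 to 876 CPM in controls. Of the 23 endothelial genes tested, 1 was called higher and 1 lower, with a median log2 fold change of 0.08. The 10 genes of pericytes and smooth muscle summed to 379 to 822 CPM with Fsh and 435 to 631 CPM in controls, with none called and a median of 0.15. The 13 germ cell genes summed to 4089 to 6033 CPM with Fsh and 4992 to 6591 CPM in controls, with none called and a median of 0.07. Leukocyte genes numbered 14, of which 11 were tested. Of these 1 was called lower, 10 of 11 had a log2 fold change below 0, and the median was −0.43, with 0.00 over all tested genes. The 7 red blood cell genes summed to 19.8 to 36.4 CPM with Fsh and 21.6 to 33.0 CPM in controls, with a median of −0.17 over the 4 tested. No gene of these marker lists stood at 0 reads over all libraries. Their part in the EPAS1 values was not tested.

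**Figure D3:**
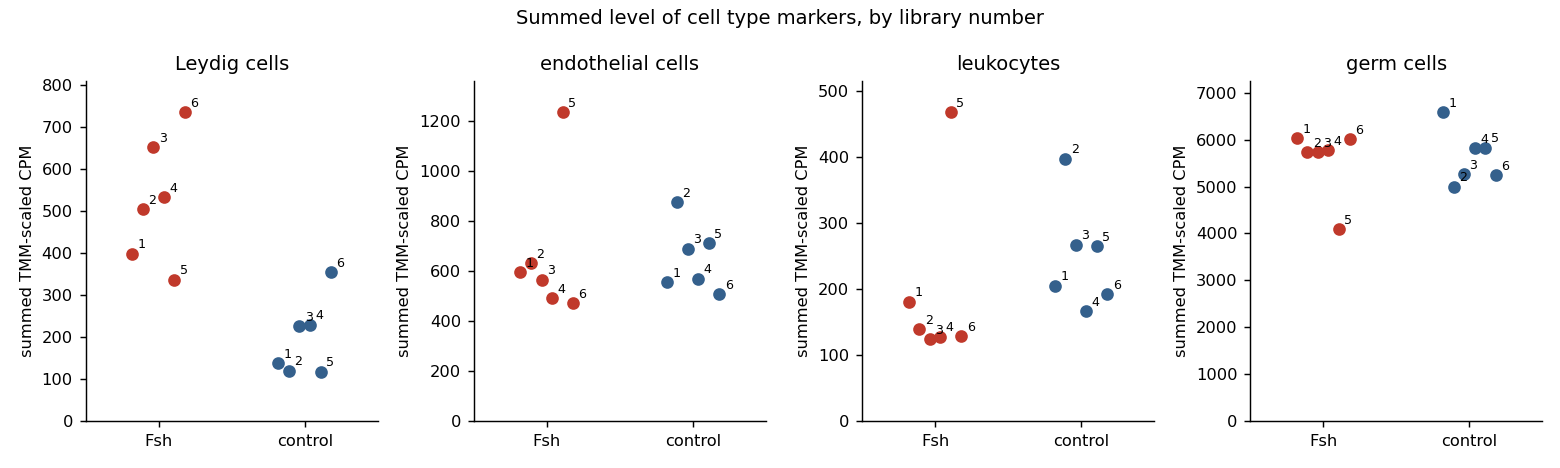
Summed TMM-scaled CPM of 4 cell type marker lists in Fsh (red) and control (blue) libraries, numbered by replicate. Leydig markers reach 337 to 737 CPM with Fsh and 117 to 354 CPM in controls, and Fsh library 5 is the highest of all in endothelial and leukocyte markers and the lowest in germ cell markers.

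Further genes of the oxygen pathway, the partners and known targets of HIFs, were looked at in the same comparison. The 4 lists, in the order given below, held 24, 21, 38 and 57 entries. Under these, 16, 15, 32 and 46 genes with counts were found, some of them in 2 lists. Entries with no such gene, among them pgk1, ldha, hk2, bnip3 and ca9, are not covered. Over the 4 lists without the HIF genes above, 94 of 105 genes had enough reads to be tested. In edgeR's quasi-likelihood test with Benjamini-Hochberg adjustment over all tested genes, 0 of the 94 were called, where 1.63% of all genes were. At an unadjusted p under 0.05 there were 13 of them, or 13.8%, while 17.4% of all tested genes reached it. Without Fsh library 5 there were 21 of 94, or 22.3%, and 21.2% of all genes then tested. In DESeq2 2 of the 94 were called (2.13%, with 5.49% of all genes called by that tool), and in limma-voom 1 (1.06%, with 1.87% of all genes). The median log2 fold change of the 94 was 0.01 and that of all tested genes 0.00, with 48 genes above 0 and 46 below, and the groups did not overlap for 1 of them (1.06%, against 1.93% of all tested genes).

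The list of oxygen sensing machinery held the other hydroxylases, ubiquitin ligase parts, coactivators and other regulators, and hif1al2, a gene named as HIF-1 alpha-like. The gene hif1al2 was not called (log2 fold change 0.53 ± 0.47 SE). The list had 15 genes tested and a median log2 fold change of 0.09. Its smallest p belonged to vhll, a VHL-like gene, which ranged from 1.31 to 3.64 CPM with Fsh (median 2.51) and from 3.17 to 5.50 CPM in controls (median 4.10). The groups overlapped, and vhll did not pass (log2 fold change −0.71 ± 0.26 SE, edgeR adjusted p = 0.179). The following genes are named for their role, after their values were seen. EGLN1 (ENSDARG00000004632), the main HIF prolyl hydroxylase of mammals, averaged 25.5 ± 1.99 CPM with Fsh and 24.0 ± 2.52 CPM in controls, and EGLN2 averaged 21.3 ± 9.07 CPM with Fsh and 18.8 ± 13.1 CPM in controls (SD, n = 6 each). The other EGLN1 copy, ENSDARG00000038996, averaged 2.48 ± 0.66 CPM with Fsh and 2.03 ± 0.39 CPM in controls. The 95% interval of its log2 fold change ran from −0.22 to 0.75. HIF1AN, the asparaginyl hydroxylase that blocks the alpha subunits' activation domain, averaged 39.3 ± 4.34 CPM with Fsh and 42.6 ± 3.68 CPM in controls. The ligase subunit gene CUL2 averaged 41.1 ± 4.24 CPM with Fsh and 44.8 ± 6.43 CPM in controls. None of these passed, and the 95% intervals of their log2 fold changes ran from −0.13 to 0.30 for EGLN1 (ENSDARG00000004632), from −0.69 to 1.02 for EGLN2, from −0.33 to 0.09 for HIF1AN and from −0.37 to 0.12 for CUL2. Of these intervals that of EGLN2 includes a 2-fold difference.

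Other bHLH-PAS factors and their coactivators, which share ARNT or the same protein class, had 11 genes tested, a median log2 fold change of −0.12 and 8 of 11 below 0. The smallest p was that of sim1b, a single-minded family gene, at 2.93 ± 0.93 CPM with Fsh and 4.54 ± 1.23 CPM in controls (SD, n = 6 each). It did not pass (log2 fold change −0.63 ± 0.24 SE, edgeR adjusted p = 0.204).

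Glucose transport and glycolysis, a process that HIF-1 is known to drive in mammals, had 30 genes tested and a median log2 fold change of 0.01. The enolase gene eno2 had the smallest p. It ranged from 7.78 to 11.8 CPM with a median of 9.15 CPM in Fsh libraries, and from 2.11 to 7.30 CPM with a median of 4.35 CPM in controls. The groups did not overlap, and it was the 1 such gene of the 94. In edgeR eno2 did not pass (log2 fold change 1.05 ± 0.28 SE, adjusted p = 0.0727). It passed in DESeq2 (adjusted p = 0.00889), in limma-voom (adjusted p = 0.0427) and in edgeR without control library 6 (adjusted p = 0.0267), and its adjusted p ran up to 0.160 over 20 alternatives.

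Other known HIF targets had 42 genes tested, 21 above 0 and 21 below, and a median log2 fold change of 0.02. BNIP3L (ENSDARG00000028067), a mitochondrial protein that marks mitochondria for removal, had the smallest p. It ranged from 20.9 to 43.3 CPM with Fsh (median 30.4) and from 10.7 to 27.3 CPM in controls (median 18.8), with 5 of 6 Fsh libraries above every control. It did not pass in edgeR (log2 fold change 0.71 ± 0.21 SE, adjusted p = 0.105) and did in DESeq2 (adjusted p = 0.0317), and its adjusted p ran up to 0.223 over 20 alternatives. The other copy of the symbol, BNIP3L (ENSDARG00000025468), averaged 7.76 ± 1.49 CPM with Fsh and 6.18 ± 1.16 CPM in controls (log2 fold change 0.32 ± 0.18 SE). VEGFA, the vascular growth factor, and epoa, which encodes erythropoietin, are named for their role, after their values were seen. VEGFA (ENSDARG00000034700), the only copy found under this symbol, averaged 36.0 ± 4.17 CPM with Fsh and 31.6 ± 8.40 CPM in controls. The interval of its log2 fold change ran from −0.15 to 0.52. The gene epoa averaged 4.02 ± 1.28 CPM with Fsh and 2.82 ± 0.84 CPM in controls (interval −0.05 to 1.07), and neither passed. Other targets leaned lower with Fsh and did not pass either. Among them were NOS2 (ENSDARG00000031976, log2 fold change −1.83 ± 0.71 SE) and ADM (ENSDARG00000015263, −0.88 ± 0.36 SE), also named after their values were seen. The other NOS2 copy, ENSDARG00000026925, had a log2 fold change of −0.42 ± 0.35 (SE). The other ADM copy, ENSDARG00000069027, had too few reads to be tested. BHLHE40, a circadian repressor of transcription, was called lower without Fsh library 5 (edgeR, log2 fold change −0.84, adjusted p = 0.0459). With all libraries it had a log2 fold change of −0.45 ± 0.31 (SE) and an adjusted p of 0.493, and over 20 alternatives its adjusted p ran up to 0.701.

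**Figure D4:**
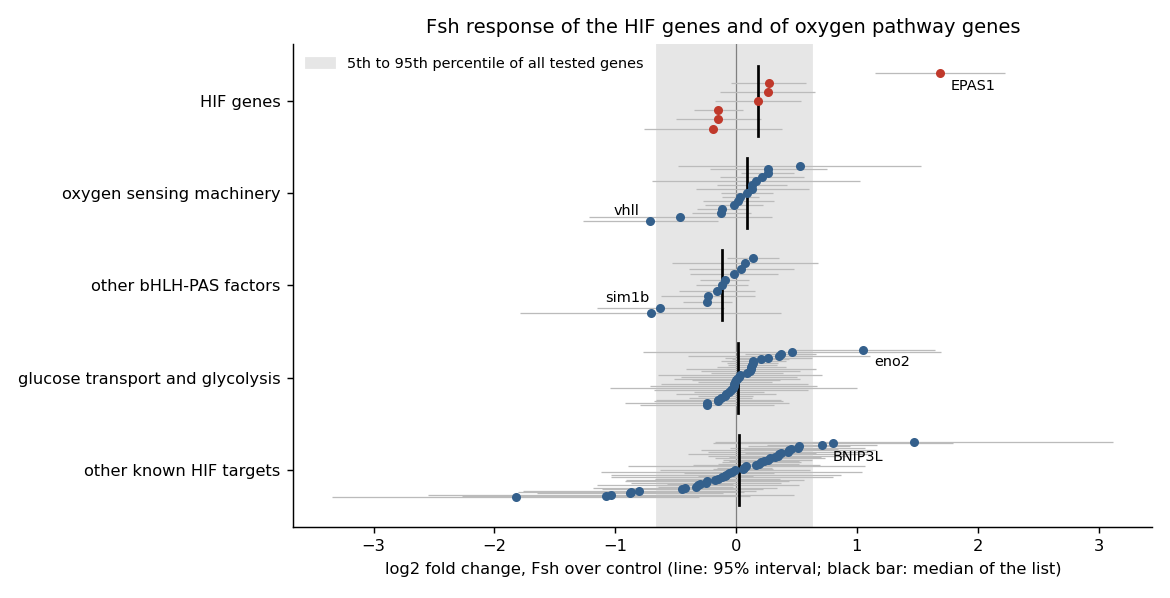
Log2 fold change, Fsh over control, of the 7 HIF genes (red) and of the tested genes of 4 oxygen pathway lists (blue), with 95% intervals (grey lines), list medians (black bars) and the 5th to 95th percentile of all tested genes (shading, −0.65 to 0.63). EPAS1 (ENSDARG00000008697) lies at 1.69, and the medians of the 4 lists lie between −0.12 and 0.09.

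A last description concerns which genes varied from library to library as the EPAS1 copies did, once the group mean was taken off each gene so that the Fsh difference plays no part. Over 12 libraries and among 13560 genes with a symbol and at least 1 CPM on average, the Pearson correlation with EPAS1 (ENSDARG00000008697) was largest for bmb (0.889), rab14l (0.882), pcdh9 (0.868), HMG20B (0.862) and MKLN1 (0.850). Of these, pcdh9 encodes a protocadherin and HMG20B a chromatin protein. For EPAS1 (ENSDARG00000057671) it was largest for SLC38A3, an amino acid transporter (0.861), EDEM2 (0.860), msmbl (0.854), ALAS1, the first enzyme of heme synthesis (0.849), and GPT, an alanine aminotransferase (0.843). Within the Fsh libraries alone, the correlations with ENSDARG00000008697 ran from 0.537 (pcdh9) to 0.915, and within controls from 0.848 to 0.992 (pcdh9). Those with ENSDARG00000057671 ran from 0.832 to 0.966 within the Fsh libraries and from 0.710 to 0.943 within controls. The lists had no gene in common, and by the same measure the copies correlated at 0.416 with each other. These are the largest of many values over libraries that share depth and tissue composition, and they were not tested.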

How the data were processed

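RNA of 12 testis libraries was measured. As their values show, the deposited files hold raw counts for each Ensembl gene ID; per the submitters' processing notes, CASAVA 1.8, STAR 2.3, HTSeq and build Zv9 were used. No source used here gives the annotation release, the strand setting or the rule for multi-matching reads, so overlapping, antisense and near-identical genes are uncertain. A symbol table named 21939 of the 33737 IDs; human-style symbols can cover several copies, so IDs are printed. No sequences or gene lengths were used.

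In R 4.3.3, edgeR 4.0.16 (TMM, filterByExpr by group, glmQLFit and glmQLFTest, no covariates) tested 19317 genes, adjusted by Benjamini-Hochberg over all of them and called under 0.05. The standard error is the log2 fold change divided by the root of F. Copy ratios used counts plus 0.5. Likeness used log2 CPM with a prior count of 2.

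The genes, lists and tests were chosen with earlier results of these data known. Named genes are the HIF genes, the called genes or the smallest p of each pathway list, and the 5 most similar to each EPAS1 copy. Genes outside this rule are EGLN1, EGLN2, HIF1AN, CUL2, ELOC, VEGFA and epoa, named for their role after their values were seen. The other BNIP3L copy, BHLHE40, the NOS2 and ADM copies and hif1al2 were also outside it and named after their values were seen. So were the Leydig genes insl3, HSD11B2, NR5A1, lhcgr and hsd3b2. On simulated counts of this comparison (19089 genes, 200 changed), recovery was 8 of 67 at 1.5-fold, 33 of 67 at 2-fold and 61 of 66 at 4-fold, with 3 unchanged genes among 105 calls. Replicate pairs differed beyond sampling noise (chi-square per degree of freedom 5.4 to 43). If libraries of a group share fish, p-values measure only the spread between these libraries. Floors cover counting error only. Alternatives were DESeq2 1.42.0, limma-voom (limma 3.58.1), other scalings and filters, a robust fit, a replicate block and leaving out each library.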

Additional observations from a re-analysis of the deposited data

Results flagged for a closer look

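The highest or lowest library of each group was compared with the rest of its group for the 7 HIF genes, the EPAS1 ratio and the 4 pathway genes named by the rule, 24 groups of 6 in all, and chance flags about 1 in 20 groups. In 2 groups it stood far from the others. HIF1A (ENSDARG00000034293) was at 262 CPM in Fsh library 5, with the next Fsh library at 174 CPM. EPAS1 (ENSDARG00000057671) was at 22.9 CPM in control library 3, with the next control library at 16.5 CPM.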

How the results depend on the processing

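EPAS1 (ENSDARG00000008697) remained the 1 HIF gene called under all 20 alternatives, with log2 fold changes from 1.54 to 1.83, and every HIF gene moved by less than the spread between replicates. The alternatives use the same libraries by which this copy was chosen, so nothing is read from its repeated call. The count of all called genes, 315, became 1061 in DESeq2 and ran from 95 (without Fsh library 2) to 758 (without Fsh library 5) with single libraries left out; it was also over 1.5 times lower without Fsh library 3, 4 or 6 or control library 1, 4 or 5 (161, 184, 139, 169, 149 and 112 genes) and higher without Fsh library 1 or control library 6 (483 and 700). The count of oxygen pathway genes, 0, became 2 in DESeq2 and 1 in limma-voom, and ran from 0 to 1 with single libraries left out, at 1 without Fsh library 5 or control library 6. Same-numbered libraries were weakly correlated (0.0217 to 0.264, with 2 of 6 Fsh libraries closest to their own number). These values do not settle whether the number marks a pairing. With a replicate block 381 genes, 1 HIF gene and 0 pathway genes were called. Low counts limit hif1aa and vhl most.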
